A study of Mus musculus with 11 samples.

Results

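RNA-sequencing libraries labelled as T cells taken from MC38 tumours were compared across all genes between tumours with a hairpin against Fgf21 and tumours with a control hairpin. They are the libraries whose titles end in Tcell, 5 of the 11 in the series, and the groups were taken from those titles. MC38 is a mouse colon carcinoma line, and the series asked how FGF21 secreted by the tumour acts on cholesterol metabolism of CD8+ T cells. The control group, shNC, had 3 libraries, called shNC 1 (title N2N3N5), shNC 2 (N6N7N8) and shNC 3 (NC124) here, and the genotype label of each was WT. The knockdown group, shFgf21, had 2 libraries. For shFgf21 1 (sh1sh3) the genotype label read FGF21 Knockdown, and for shFgf21 2 (sh2sh4) it read FGF22 Knockdown, so this library is in the group by its title alone. The series title places FGF21 in the tumour, and the labels give the genotype without naming the cells that carry the hairpin. The titles join several numbers, and the labels do not say whether samples were pooled. They give no strain, age, sort gate or hairpin sequence, and they do not say that the libraries of a group came from separate mice. P-values therefore measure only library-to-library spread, which may be technical.

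Cytotoxic T cells and NK cells kill by releasing perforin, which opens pores in a target cell, and granzymes, proteases that pass through them. Both also secrete interferon gamma, which makes macrophages and tumour cells express MHC class II, guanylate binding proteins and the chemokine Cxcl9, and Cxcl9 in turn attracts T cells through its receptor Cxcr3. Tumour macrophages range from cells rich in antigen presentation and complement genes to cells rich in secreted matrix and repair genes such as Spp1, Chil3 and Mmp12. FGF21 is an endocrine growth factor that signals through an FGF receptor together with the co-receptor Klb.

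The deposited values were gene counts, with 14944013 to 16654736 counts per library. Levels are given as CPM (counts scaled to a common library total) after TMM scaling over the 5 libraries, so they set libraries side by side for 1 gene. Log2 CPM correlated at 0.975 to 0.982 between libraries, across genes, which are not independent replicates, and every pair differed by more than sampling noise. Principal component 1, with 34% of the variance, set both shFgf21 libraries (scores 23.5 and 36.7) apart from the controls (-27.5, -15.5 and -17.2). Mitochondrial transcripts took 2.82% to 4.09% of counts.

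The label T cell covers only a small part of the RNA. On the deposited per-length scale (FPKM), Cd3e, part of the CD3 complex of the T cell receptor, was at 11.3 ± 3.96 in shNC and 7.19 ± 0.111 in shFgf21 (mean ± SD, n = 3 and n = 2). Lyz2, the macrophage lysozyme, was at 4761 ± 471 and 6473 ± 216 FPKM. The complement gene C1qa was at 985 ± 180 and 1744 ± 371 FPKM, and Cd8a, the CD8 co-receptor, at 9.15 ± 4.17 and 5.48 ± 1.76 FPKM. All 24 T cell identity genes together took 0.0509% to 0.101% of counts, and the 15 macrophage and monocyte genes took 1.14% to 1.8%. T cell markers were thus present but were a minor component, and the libraries are called sorted libraries below. In the tumour libraries the T cell identity genes summed to only 1.43 to 3.32 CPM and the macrophage genes to 43.4 to 57.2 CPM (scaled over all 11 libraries). RNA abundant in the tumour libraries was also present in the sorted ones. A list of 12 fibroblast and matrix genes summed to 4821 to 5829 CPM, beside 6741 to 10487 CPM in tumours. Vim, vimentin, was at 442 ± 26.1 FPKM in shNC and 398 ± 21.1 FPKM in shFgf21. The share of each cell type in the RNA was not measured.

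The knockdown itself could not be checked. Fgf21 had 0 counts in all 5 sorted libraries, which allows up to 0.18 to 0.201 CPM, where this limit covers counting error only. In the tumour libraries it had 0, 2 and 1 counts in shNC and 0 in each shFgf21 library. Fgf22, which 1 label names, had 6, 1 and 2 counts in shNC and 8 and 8 in shFgf21 sorted libraries. Genes that separated the tumour lines gave a partial check of the titles, since the sorted libraries also carried tumour-type RNA. S100a3, a calcium-binding protein gene that was higher in shFgf21 tumours, had 8, 16 and 11 counts in shNC and 53 and 51 counts in shFgf21 sorted libraries. Gm41787, a predicted gene without a named function, had 0, 1 and 0 counts in shNC and 12 and 7 in shFgf21. Both tumour-line genes went with the titles, in shFgf21 2 as in shFgf21 1. Abl1, a tyrosine kinase gene that was also higher in shFgf21 tumours, went against the title in shNC 3: it had 634, 598 and 2392 counts in shNC and 2346 and 2185 in shFgf21. The other genes called between tumour groups, Gm20716 and Gm45713, followed neither title (574, 0 and 200 against 0 and 0 counts, and 0, 0 and 48 against 47 and 0). The library labelled shNC 3 therefore stands apart for Abl1, and results that rest on it are given with and without it.

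Sequences are shown for the called genes whose promoter or mature RNA the comparison bears on. Cxcl9 and Aoah are among the 3 genes that rose, and their promoters were searched for interferon and NF-kappa B type letters. The promoters are from RefSeq on GRCm38.p6, from 250 bases before to 50 bases after the start of the gene, read 5′ to 3′ on the strand of the gene. Cxcl9 covers chr5:92328030-92328329 on the minus strand and Aoah chr13:20793863-20794162 on the plus strand. Capitals mark matches on either strand to GAAANNGAA, the core of the interferon-stimulated response element, or to GGGANTTCC, a kappa B type site.
Cxcl9: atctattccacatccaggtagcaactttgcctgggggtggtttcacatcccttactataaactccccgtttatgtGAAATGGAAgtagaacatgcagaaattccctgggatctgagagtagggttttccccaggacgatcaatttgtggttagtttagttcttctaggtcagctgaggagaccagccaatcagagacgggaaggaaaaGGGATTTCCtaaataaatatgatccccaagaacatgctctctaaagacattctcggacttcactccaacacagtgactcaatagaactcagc
Aoah: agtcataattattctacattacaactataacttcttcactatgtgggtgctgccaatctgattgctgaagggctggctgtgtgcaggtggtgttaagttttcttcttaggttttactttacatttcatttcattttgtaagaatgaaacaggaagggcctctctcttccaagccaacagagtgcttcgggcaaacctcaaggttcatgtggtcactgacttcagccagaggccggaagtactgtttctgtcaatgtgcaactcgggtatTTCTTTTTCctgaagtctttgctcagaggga

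Counted with the first transcribed base as 0, the Cxcl9 promoter held GAAATGGAA at -175 to -167 and GGGATTTCC at -42 to -34. The Aoah promoter held TTCTTTTTC at 19 to 27, a match on the other strand to the response element core. Neither held TTCNNNGAA, the letters of the gamma-activated site (GAS), and no pair of matches overlapped. Of 32851 mouse promoters of this length, 8.56% held GAAANNGAA, 1.68% held GGGANTTCC and 8.3% held TTCNNNGAA. A match describes the letters and not a bound site. The called microRNA gene Mir8114 encodes the mature sequence below (chr1:153899989-153900009, plus strand), with its seed, bases 2 to 8, in capitals.
mmu-miR-8114: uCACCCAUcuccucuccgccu

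Between shFgf21 and shNC sorted libraries, 13 of 16454 tested genes were called at an adjusted p under 0.05, which is 0.079% (edgeR quasi-likelihood F-test, Benjamini-Hochberg over all genes). The 3 genes that rose in shFgf21, 0.0182% of genes tested, were Cfb, Cxcl9 and Aoah. The 10 that fell, 0.0608%, included Prf1 of cytotoxic lymphocytes, Mmp12 of macrophages and the collagen gene Col12a1. At an unadjusted p under 0.05 there were 969 higher genes (5.89%) and 873 lower genes (5.31%), and the median over all genes was -0.01 on the log2 scale. Leaving out an shFgf21 library leaves 1 library in that group, so the spread then comes from the controls alone and the lone library is assumed to vary like them. In that smaller design 0 genes passed by edgeR without shFgf21 2, with 1060 at an unadjusted p under 0.05. Without shFgf21 1 only Xiap, an inhibitor of cell death, passed, and it is not among the 13. Without shNC 1, 28 genes passed, and without shNC 3, 34 passed. DESeq2 called 246 genes (1.5% of 16450), of which 153 were higher (0.93%) and 93 lower (0.565%), and these held all 13. Below, called without a tool means this edgeR threshold, and calls by DESeq2 are named as such. With scaling factors from tumour-side genes, defined below, 1 gene was called higher and 8 lower. In bulk RNA, fewer cells of a type and less RNA per cell cannot be told apart, and this holds for every gene below.

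Cfb, complement factor B of the alternative pathway (chromosome 17, 34856374 to 34862518), was at 67.6, 85.6 and 66.1 CPM in shNC against 184 and 196 CPM in shFgf21. The log2 difference was 1.38 ± 0.13 (SE), with an edgeR adjusted p of 0.0296. Reads could be split with Gm20547, a listed gene that overlaps Cfb and had 168, 540 and 747 counts in shNC and 58 and 460 in shFgf21. Summed over both genes the levels were 78.3, 122 and 110 CPM against 188 and 225 CPM, a ratio of means of 2. The groups stayed apart either way.

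Cxcl9, the chemokine ligand of Cxcr3 (chromosome 5, 92321347 to 92328079), was at 265, 322 and 269 CPM in shNC against 609 and 622 CPM in shFgf21. It rose by 1.11 ± 0.11 on the log2 scale (SE, edgeR adjusted p = 0.0296). Aoah, an enzyme that removes acyl chains from bacterial lipopolysaccharide (chromosome 13, 20794113 to 21036617), was at 62.1, 68 and 64.3 CPM in shNC against 121 and 125 CPM in shFgf21 (0.92 ± 0.09, edgeR adjusted p = 0.0296). For both genes the shFgf21 libraries were close to each other and lay above every control. Leaving out any 1 library kept the differences at 1.31 to 1.51 for Cfb, 1.06 to 1.20 for Cxcl9 and 0.89 to 0.96 for Aoah.

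Prf1, perforin (chromosome 10, 61297833 to 61304680), was at 65.5, 61.8 and 68.2 CPM in shNC against 31 and 25.2 CPM in shFgf21. It fell by 1.21 ± 0.13 on the log2 scale (SE, edgeR adjusted p = 0.0296), and by 1.07 to 1.37 with any 1 library left out. Mmp12, the macrophage elastase (chromosome 9, 7344381 to 7369499), was at 1800, 1582 and 2096 CPM in shNC against 783 and 831 CPM in shFgf21 (-1.18 ± 0.14, edgeR adjusted p = 0.0479). Col12a1, a collagen that associates with fibrils (chromosome 9, 79598991 to 79718831), was at 55.6, 59.9 and 62.9 CPM in shNC against 25.7 and 31 CPM in shFgf21 (-1.07 ± 0.13, edgeR adjusted p = 0.0489). The groups did not overlap for any of these genes. Col12a1 and Mmp12 were the calls nearest to the threshold and passed in 3 and 5 of 13 alternative settings, against 9 for Cfb and 8 each for Cxcl9 and Prf1.

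The other called protein genes have housekeeping or signalling roles. Pcyt1a, the rate-limiting enzyme of phosphatidylcholine synthesis (chromosome 16, 32430921 to 32475070), was at 72.1, 67 and 74.2 CPM in shNC against 31 and 28.2 CPM in shFgf21 (-1.26 ± 0.11, edgeR adjusted p = 0.0296). Tnpo1, a nuclear import receptor (chromosome 13, 98839019 to 98926384), was at 162, 144 and 154 CPM against 74.5 and 59.2 CPM. Fam107b (chromosome 2, 3570488 to 3782142) was at 142, 138 and 106 CPM against 52.3 and 52.5 CPM. All of these fell with no overlap between groups. Snrk, a kinase of the AMPK-related family (chromosome 9, 122117266 to 122169702), was at 20.8, 19.8 and 22.6 CPM against 7.46 and 5.42 CPM. Tmem70, an assembly factor of mitochondrial ATP synthase (chromosome 1, 16665207 to 16678275), was at 28.2, 23.1 and 26.9 CPM against 10.2 and 10.3 CPM. Both were less abundant than the other called protein genes, and their log2 differences were -1.71 ± 0.18 and -1.35 ± 0.14.

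The small RNA genes Mir8114 and Snord16a completed the calls, each with 1 count in each shFgf21 library. Mir8114 (chromosome 1, 153899926 to 153900036) had 68, 60 and 94 counts in shNC and 1 and 1 in shFgf21 (edgeR adjusted p = 0.0275). The ratio of summed counts, scaled for depth, was 71.8-fold, with an exact Poisson interval of 19.6 to 596 that covers counting error only. Snord16a, a small nucleolar RNA (chromosome 9, 64175423 to 64175521), had 45, 65 and 43 counts against 1 and 1 (adjusted p = 0.0296, ratio 49.5, interval 13.5 to 412). Both lie within other genes. Mir8114 overlaps the first exon of Glul, glutamine synthetase (exon at 153899944 to 153900059), and Snord16a lies inside the ribosomal protein gene Rpl4. Glul had 2773, 2995 and 3876 counts in shNC and 3586 and 3744 in shFgf21, and Rpl4 had 20965, 22193 and 22016 against 20233 and 22202. The host genes had similar counts in both groups, and the share of host reads in the small RNA counts was not tested.

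**Figure D1:**
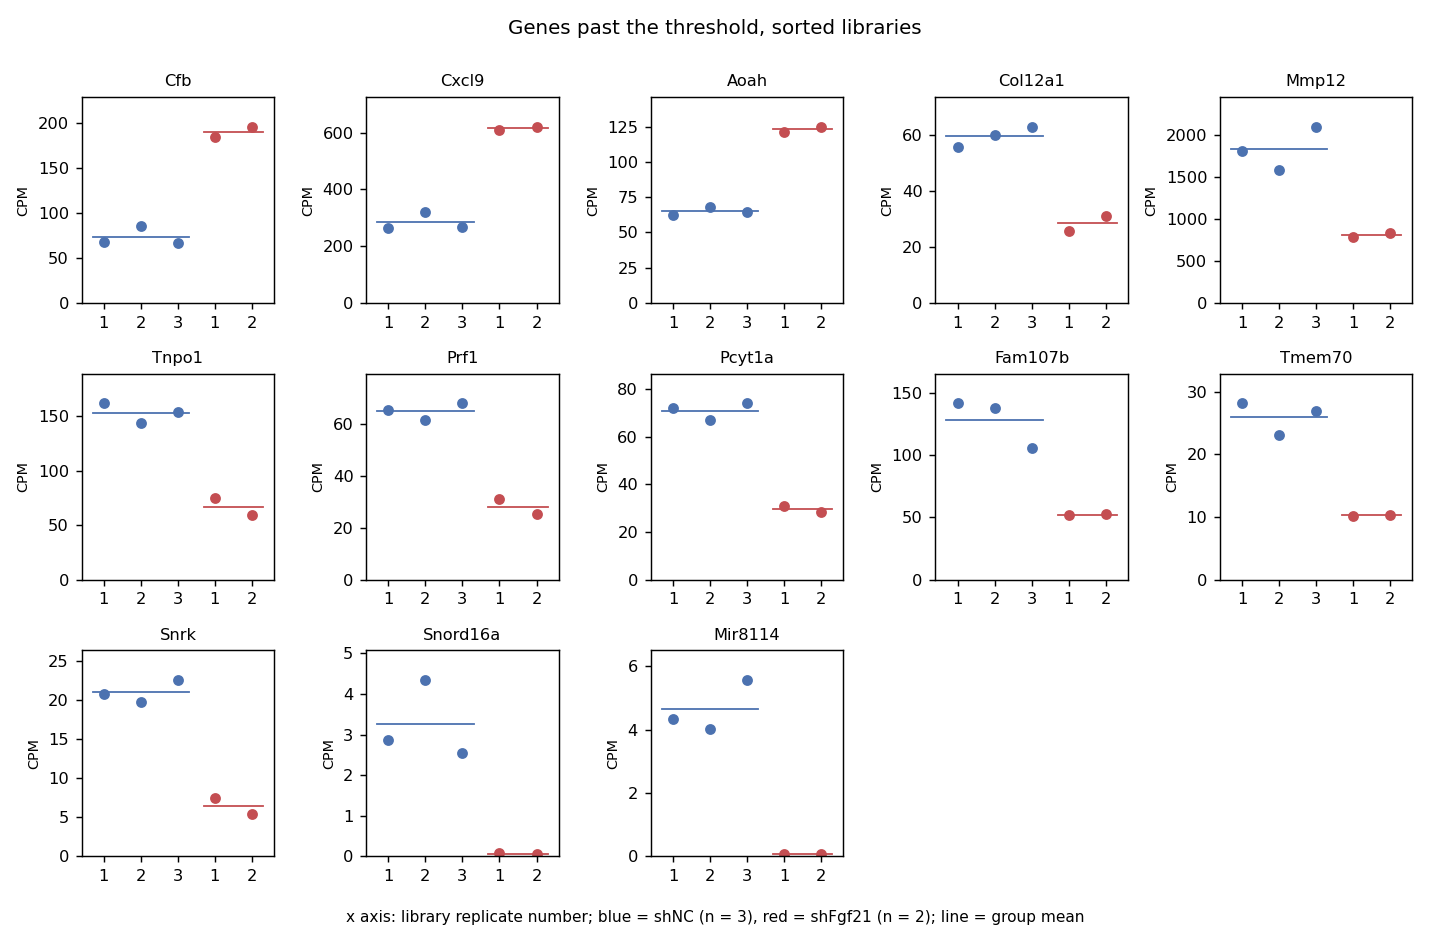
CPM of the 13 called genes in each sorted library (blue, 3 shNC; red, 2 shFgf21; line, group mean), 1 panel per gene with its own linear axis. For Cfb, Cxcl9 and Aoah both red points lie above the blue ones, and for the other 10 genes they lie below.

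In the tumour libraries the called genes varied within groups. Of the 9 called genes tested in both kinds of library with a mean of at least 10 CPM, 9 varied by at least 2-fold within a tumour group, against 10.5% of 9995 such genes. That mean is not the tumour level, since Mmp12, which is among the 9, was at only 0.246 to 6.56 CPM in tumours. Scaled over all 11 libraries, Pcyt1a was at 65.8, 45.9 and 15.3 CPM in shNC tumours and at 21.1, 66.6 and 57 CPM in shFgf21 tumours. Fam107b was at 117, 27.2 and 33.8 CPM against 36.7, 94.6 and 73.1 CPM. The high and low values of both genes occurred in both tumour groups. Snord16a had 139, 1 and 1 counts in shNC tumours and 1, 103 and 107 in shFgf21 tumours, again with high and low values in both groups. The median of the widest range within a tumour group was 4.3-fold for these 9 genes and 1.4-fold for all such genes. The part of such variation in the sorted calls was not tested. Within the shNC sorted libraries, 54 of 10253 genes at 10 CPM or more (0.527%) spanned at least 4-fold, and 0 of the called genes were among them. Examples, chosen after their values were seen, were the complement receptor C5ar1, at 17.9, 170 and 181 CPM in shNC and 193 and 221 CPM in shFgf21, and Hmga1, a chromatin protein gene, at 373, 70.5 and 419 CPM against 390 and 388 CPM.

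**Figure D2:**
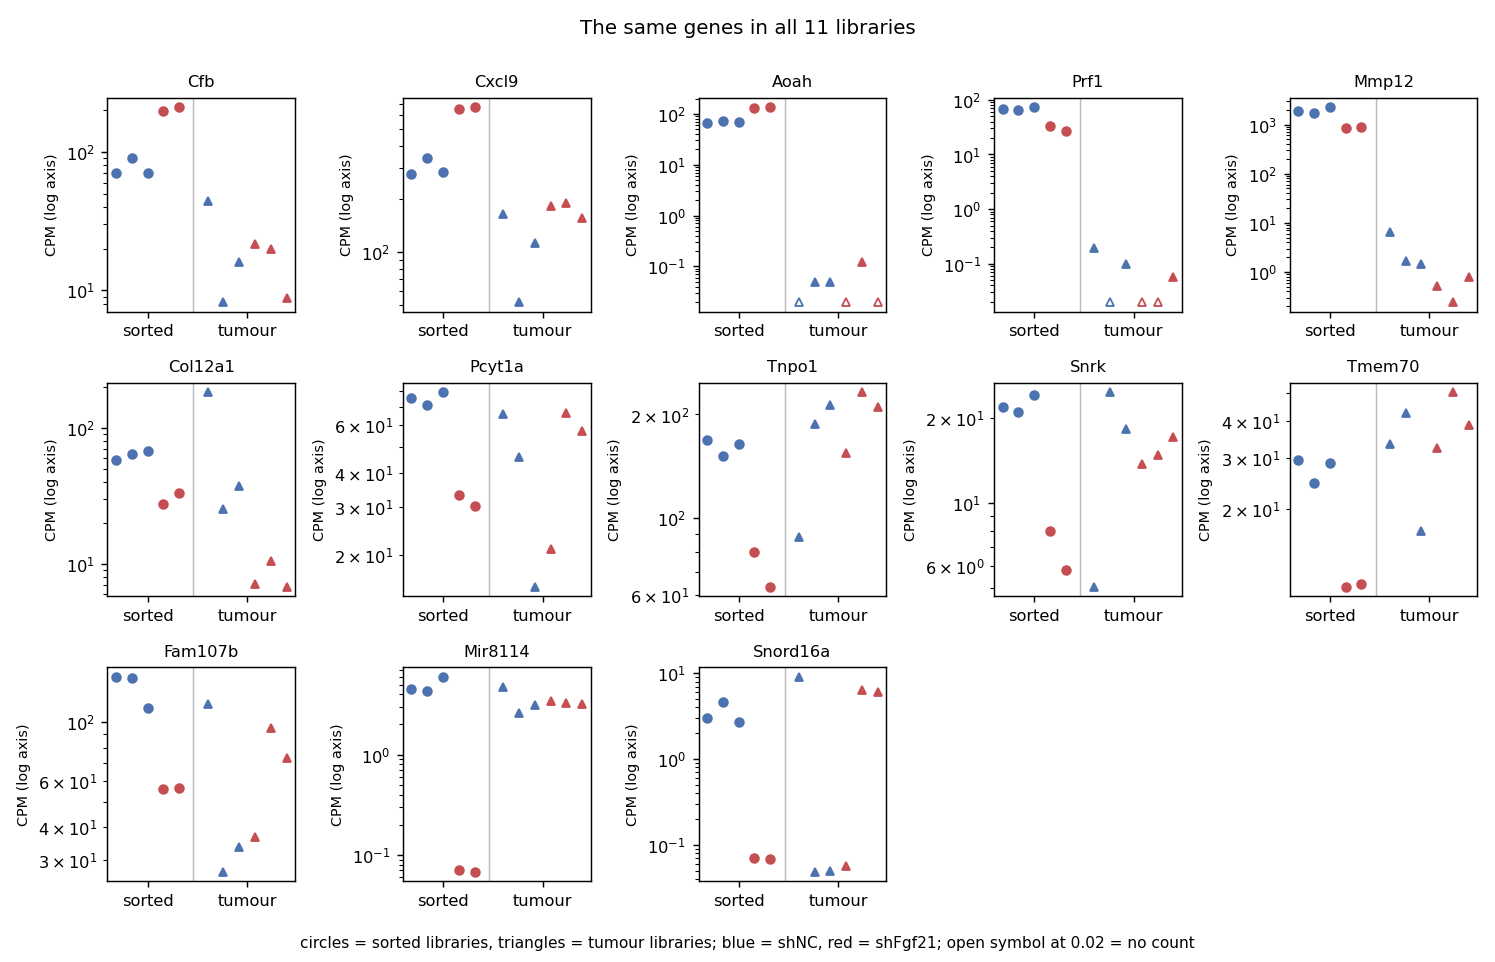
CPM on a log axis of the 13 called genes in all 11 libraries, scaled together (circles, sorted; triangles, tumours; blue, shNC; red, shFgf21; open symbols at 0.02, no count). Pcyt1a, Fam107b and Snord16a show high and low values within both tumour groups, while the sorted groups do not overlap.

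Whether the knockdown effect differed between sorted and tumour libraries was tested in a fit of all 4 groups. Only Mir8114 passed, 1 of 17327 genes (0.00577%). Its effect was lower by 5.93 ± 0.59 in sorted libraries on the log2 scale (edgeR adjusted p = 0.00794), and in tumours it had 73, 53 and 63 counts in shNC and 60, 53 and 56 in shFgf21. Cish, a feedback inhibitor of cytokine signalling through STAT5, came next, with an interaction of 1.99 ± 0.27 that did not pass (adjusted p = 0.0566). For the genes that rose in sorted libraries, the interaction was 1.82 ± 0.72 for Cfb and 0.42 ± 0.45 for Cxcl9, and neither passed. Cxcl9 was also present in tumours, at 165, 52.1 and 112 CPM in shNC and 184, 190 and 156 CPM in shFgf21, where the groups overlapped. It was not called there, where 5 of 14950 genes (0.0334%) were.

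Transcripts were next kept apart by where they were abundant. Genes at 5 CPM or more in sorted libraries and at least 10 times their tumour level were called sorted-side (787 genes, 4.78%). This class holds 23 of 24 T cell identity and 14 of 15 macrophage genes, but only 4 of 8 NK, 2 of 7 B cell, 2 of 8 dendritic cell and 4 of 8 neutrophil genes tested. Genes at 5 CPM or more in tumours and at least 2 times their sorted level were called tumour-side (180, 1.09%), and the other 15487 were shared. Aoah, Prf1 and Mmp12 are sorted-side, the other 10 called genes are shared, and 0 tumour-side genes passed by edgeR. At an unadjusted p under 0.05, 30% of sorted-side genes (150 higher and 86 lower) stood against 10.2% of shared genes and 18.3% of tumour-side genes (19 higher and 14 lower). DESeq2 called 69 of the 787 sorted-side, 171 of the 15487 shared and 6 of the 180 tumour-side genes, beside 1.5% of all genes it tested. Of sorted-side genes 56.7% were higher in shFgf21, with a median log2 difference of 0.07, against -0.01 for shared and -0.04 for tumour-side genes. The groups did not overlap for 38.9% of sorted-side, 28.9% of shared and 33.3% of tumour-side genes, beside 29.4% of all genes. Sorted-side genes took 7.24%, 8.03% and 8.40% of counts in shNC and 8.46% and 9.24% in shFgf21.

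**Figure D3:**
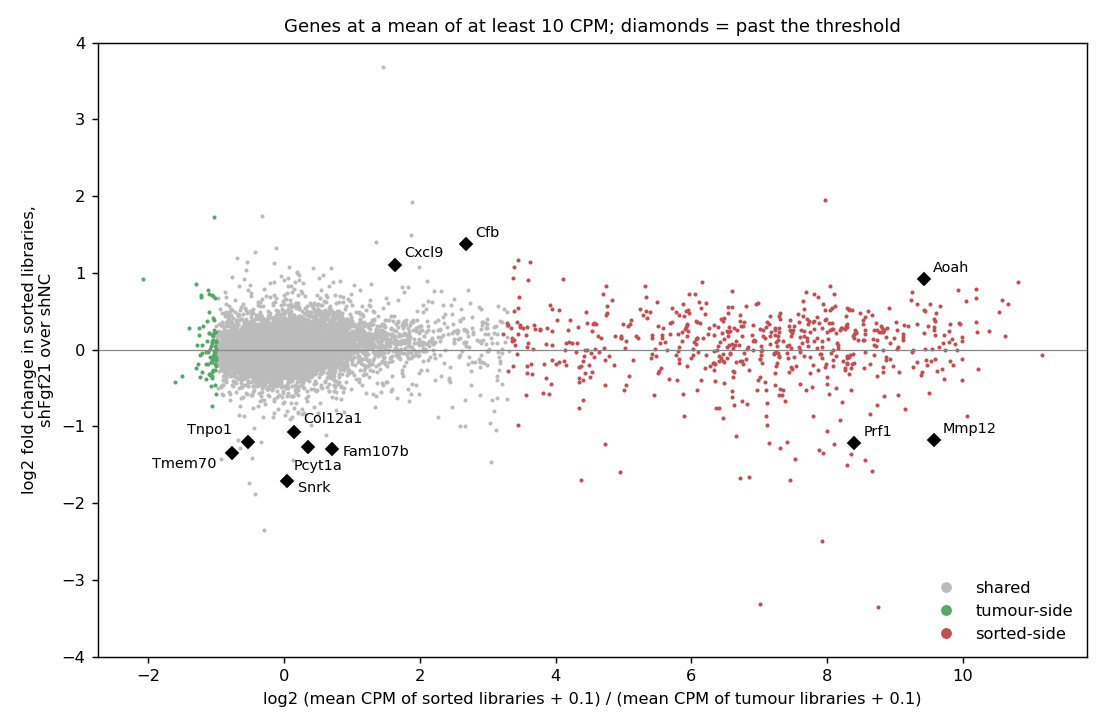
Log2 difference between shFgf21 and shNC sorted libraries (y axis) against the log2 ratio of mean sorted to mean tumour CPM with 0.1 added (x axis), for genes at 10 CPM or more (red, sorted-side; grey, shared; green, tumour-side; diamonds, called). Called genes lie among the shared and the sorted-side genes, and the sorted-side cloud is wider than the shared cloud.

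Lymphocyte genes are described first. Of 24 T cell identity genes, 17 were lower and 7 higher, none was called by edgeR or DESeq2, and the median was -0.24. The median was -0.49 without shNC 3 and -0.43 without shFgf21 2, and -0.15 without shNC 1 and -0.13 without shFgf21 1. Their summed level was 987.8, 898.2 and 502.2 CPM in shNC and 591.8 and 712.3 CPM in shFgf21, so shNC 3 lay below both knockdown libraries and the groups overlapped. Without shNC 3 they did not overlap, which follows from its being the only control below the shFgf21 values. Cd8b1, the CD8 beta chain, was at 49.1, 35.8 and 16.6 CPM in shNC and 16.5 and 19.5 CPM in shFgf21 (edgeR adjusted p = 0.439). Cd8a was at 95.5, 78.3 and 34.6 CPM against 33.1 and 53.4 CPM, with shNC 3 among the knockdown values. Cd4, the co-receptor of helper T cells, was at 36, 38 and 21.3 CPM against 40.4 and 39.8 CPM. CD8 genes and Cd4 thus had differences of opposite sign (-0.68 ± 0.40 for Cd8a, 0.34 ± 0.23 for Cd4), and neither passed (adjusted p = 0.572 and 0.626). Trat1, an adaptor of the T cell receptor, was low throughout, at 0.894, 0.736 and 0.888 CPM against 2.66 and 1.47 CPM.

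The cytotoxic effector genes had the most uniform direction of the lymphocyte lists. All 16 members were lower in shFgf21, 11 of them at an unadjusted p under 0.05 and 10 with no overlap between groups, and 1, Prf1, was called. DESeq2 called 3 lower (Prf1, Gzma and Gzmb). Among all genes, 14.5% were higher and 15% lower with no overlap. The median of the list was -1.02, with a range of -1.15 to -0.83 over all alternatives, and the summed level was 1042, 901.6 and 1031 CPM in shNC and 555.1 and 376.5 CPM in shFgf21. Here shNC 3 sat with the other controls. Gzmb, granzyme B, was at 168, 152 and 115 CPM against 82.2 and 88.3 CPM (-0.77 ± 0.16, edgeR adjusted p = 0.192). Gzma, granzyme A, was at 25.5, 19.9 and 20.9 CPM against 12.8 and 6.25 CPM (adjusted p = 0.236). Gzmf was at 177, 142 and 229 CPM against 99.7 and 44.4 CPM (adjusted p = 0.257), but granzymes C to G are near-identical copies whose reads may be shared. Ifng, interferon gamma, was at 91.8, 89.8 and 32.8 CPM in shNC against 23.9 and 31.7 CPM in shFgf21 (-1.36 ± 0.41, adjusted p = 0.313), with shNC 3 close to the knockdown values. Without shNC 3, Gzmb and Ifng passed (edgeR adjusted p = 0.0437 and 0.0188). Over all 13 alternative settings they passed in only 2 and 1.

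NK receptor genes were lower beside the effector genes. Of 8 NK genes 7 were lower, 4 with no overlap (beside 15% of all genes) and none called, with a median of -0.88, and DESeq2 called 0 of them. Klrd1, the CD94 chain of inhibitory and activating NK receptors, was at 23.3, 22.2 and 11 CPM in shNC against 9.26 and 9.75 CPM in shFgf21 (edgeR adjusted p = 0.323). It passed without shNC 3 (adjusted p = 0.0437), which was the only 1 of 13 alternative settings where it did. Klrb1c, the NK1.1 antigen, was at 6.77, 8.16 and 4.86 CPM against 3.8 and 2.04 CPM (adjusted p = 0.295). Summed, the NK list was at 57.7 to 102 CPM in shNC against 56.2 to 56.5 CPM in shFgf21. Of this sum the tumour-side member Klra4 gave 18.5 to 21.9 CPM per library, with a log2 difference of -0.04. The list also summed to 45.6 to 61.3 CPM in tumours, where Klra4 averaged 48.1 CPM. The sum is therefore not a measure of NK cells alone. In the B cell list 5 of 7 tested members were lower. Its most abundant member, Ebf1, a transcription factor that stromal cells also express, was at 36.5, 30.6 and 30.3 CPM against 33.9 and 26.3 CPM (adjusted p = 0.824). Ighm, the heavy chain of immunoglobulin M, was at 29.7, 20.7 and 25.2 CPM against 14.2 and 13 CPM (adjusted p = 0.176), and it was the 1 member that DESeq2 called, lower. The part of NK and B cell RNA in the lower effector levels was not tested.

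Relative to the T cell identity list the effector genes were still lower. That list holds Cd4 and CD8 genes, which differed in opposite directions. The log2 differences were -0.68 for Cd8a, -0.91 for Cd8b1 and -0.98 for Klrd1 of the NK list. Beside them, those of Gzmb, Prf1 and Ifng were -0.77, -1.21 and -1.36. Levels relative to CD8 or NK genes alone were not tested. Per 100 counts of the T cell identity list, Prf1 stood at 6.63, 6.88 and 13.6 in shNC and at 5.23 and 3.53 in shFgf21. Ifng stood at 9.3, 10 and 6.53 against 4.04 and 4.45, Gzmb at 17.1, 16.9 and 23 against 13.9 and 12.4, and the whole effector list at 105, 100 and 205 against 93.8 and 52.9. Each of these measures separated the groups. The ratio of Prf1 was highest in shNC 3, whose T cell identity sum was the lowest. Pdcd1, the PD-1 gene, overlapped on this scale, at 1.86, 2.94 and 2.04 against 1.37 and 2.1. With 3 libraries against 2 the smallest 2-sided exact permutation p is 0.2, which every ratio that separated the groups reached, and Pdcd1 had an exact p of 0.6.

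Other T cell states showed no common direction. Of 10 tested inhibitory receptor and exhaustion genes 6 were higher and 4 lower, none called, with a median of 0.04 whose sign changed in 3 alternatives. Entpd1, the ectonucleotidase CD39, was at 99.9, 114 and 101 CPM in shNC and 147 and 166 CPM in shFgf21 (edgeR adjusted p = 0.149). It was the 1 member that DESeq2 called, and macrophages also express it. Pdcd1 was at 18.4, 26.4 and 10.2 CPM against 8.13 and 15 CPM (adjusted p = 0.586). Of 9 naive and memory genes 5 were lower, and DESeq2 called Il7r and Bach2, both lower. Il7r, the interleukin 7 receptor, was at 87.2, 104 and 108 CPM against 71 and 61.6 CPM (adjusted p = 0.207), and Tcf7, a factor of stem-like T cells, at 34, 32.1 and 29 CPM against 37.1 and 33.1 CPM (adjusted p = 0.698). Of 9 regulatory T cell and costimulation genes 6 were higher, and DESeq2 called only Tnfrsf9, lower. Foxp3, the lineage factor of regulatory T cells, was at 18, 18 and 16.9 CPM against 23.2 and 19.7 CPM (adjusted p = 0.485), and Tnfrsf9, the costimulatory receptor 4-1BB, at 150, 132 and 164 CPM against 110 and 106 CPM (adjusted p = 0.25). Foxp3 had no overlap between groups but a difference of only 0.28 ± 0.13.

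**Figure D4:**
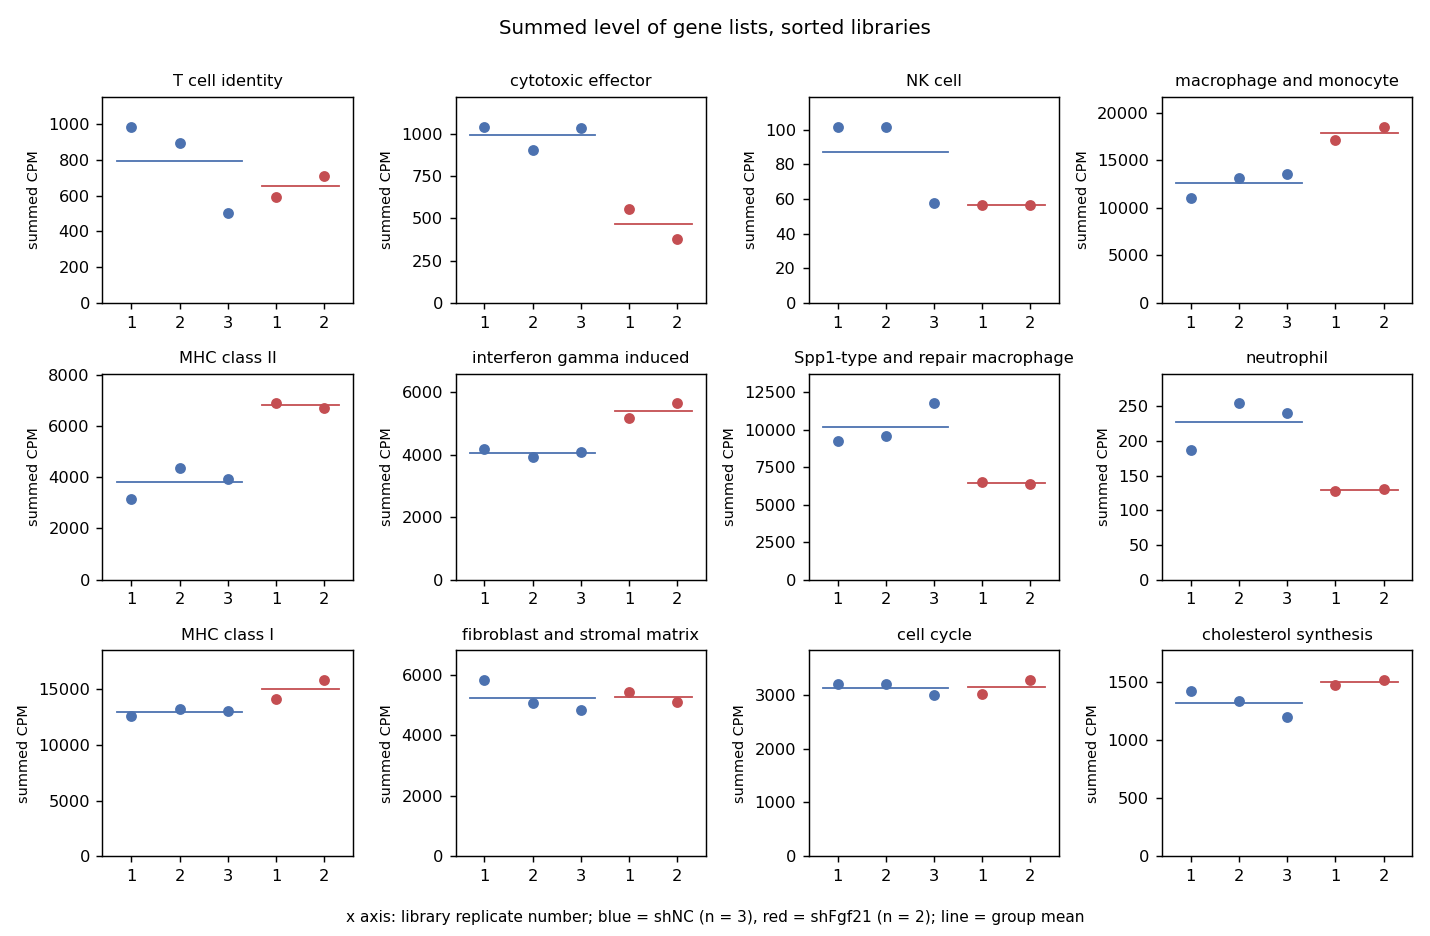
Summed CPM of 12 gene lists in each sorted library (blue, shNC; red, shFgf21; line, group mean), 1 panel per list with its own linear axis. The cytotoxic effector, MHC class II and macrophage panels separate the groups, while in the T cell identity panel shNC 3 lies below both shFgf21 libraries.

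Macrophage and monocyte genes were higher as a group without a single call. Of 15 genes 14 were higher, 10 with no overlap and 9 at an unadjusted p under 0.05, with a median of 0.48 that was 0.32 without shNC 1. Among all genes 14.5% were higher with no overlap and 5.89% higher at that p. The sum of the list was 11077, 13161 and 13561 CPM in shNC and 17203 and 18577 CPM in shFgf21, a ratio of means of 1.42. Adgre1, the F4/80 antigen, was at 183, 174 and 180 CPM against 269 and 351 CPM (edgeR adjusted p = 0.104). Ms4a7, a membrane protein of resident-type macrophages, was at 94.3, 101 and 108 CPM against 160 and 186 CPM (adjusted p = 0.0781). Csf1r, the receptor for macrophage colony stimulating factor, was at 385, 483 and 455 CPM against 614 and 757 CPM (adjusted p = 0.201). The only member that was lower was Ly6c2, a marker of inflammatory monocytes, at 36.5, 33.6 and 21.1 CPM against 17.4 and 23.4 CPM. DESeq2 called 7 of the 15, all higher.

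MHC class II genes, which present peptides to CD4 T cells, were also higher, with larger differences than the macrophage genes. Of 10 members 9 were higher, all 9 with no overlap (beside 14.5% of all genes), and none was called by edgeR (median 0.72). DESeq2 called 6, all higher (H2-Aa, H2-Ab1, H2-Eb1, H2-DMb1, Cd74 and Ciita). H2-Ab1 was at 313, 586 and 563 CPM in shNC against 1096 and 1062 CPM in shFgf21 (1.15 ± 0.24, edgeR adjusted p = 0.192). H2-Eb1 was at 313, 472 and 452 CPM against 896 and 852 CPM (1.08 ± 0.17, adjusted p = 0.108). It passed without shNC 1 (adjusted p = 0.0481), and in 2 of 13 alternative settings in all. Ciita, the master activator of class II genes, was at 22.7, 31.4 and 26.6 CPM against 51.8 and 43.2 CPM (adjusted p = 0.162). Cd74, the invariant chain, was at 1918, 2336 and 1999 CPM against 3344 and 3379 CPM (adjusted p = 0.13). The sum of the list was 1.78 times its control mean, beside 1.42 times for the macrophage list. The tumour libraries also held class II RNA, at 541.4, 103.1 and 420.1 CPM in shNC and 801.4, 732.4 and 554.9 CPM in shFgf21. The part of tumour RNA in the difference was not tested.

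Interferon gamma-induced genes were higher throughout while Ifng itself was lower. All 19 tested members were higher, 13 with no overlap (beside 14.5% of all genes), and 1, Cxcl9, was called (median 0.29, range 0.21 to 0.35 over alternatives). DESeq2 called Cxcl9 and Gbp2. Gbp2, a guanylate binding protein of cell-intrinsic defence, was at 487, 459 and 460 CPM in shNC against 749 and 788 CPM in shFgf21 (0.71 ± 0.09, edgeR adjusted p = 0.0562). Gbp5, of the same family, was at 83, 72.6 and 91.2 CPM against 107 and 115 CPM (adjusted p = 0.282). Both genes had no overlap between groups. The level of the list in tumours was similar to that in sorted libraries, at 4284, 1954 and 3187 CPM in shNC and 4964, 5153 and 4036 CPM in shFgf21 tumours, against 4178, 3929 and 4070 CPM and 5171 and 5647 CPM in sorted libraries. Which cells carry the difference was not tested. Type I interferon genes were split, with 13 of 23 higher and 10 lower and a median of 0.02. Oasl1 of that list was at 43.8, 88.2 and 51.7 CPM against 110 and 121 CPM (adjusted p = 0.295) and was the 1 member that DESeq2 called, and Oas2 at 77.7, 99.3 and 80.7 CPM against 52 and 69.7 CPM.

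Complement genes held the called gene Cfb, and C3 came close to the threshold. C3, the central complement component, was at 390, 428 and 352 CPM in shNC against 685 and 725 CPM in shFgf21 (0.85 ± 0.11, edgeR adjusted p = 0.0562). C1ra, a protease of the first component, was at 89.5, 98.6 and 93.8 CPM against 128 and 126 CPM (adjusted p = 0.192). Serping1, the inhibitor of that protease, went the other way, at 36, 30.2 and 33.9 CPM against 20.5 and 26.9 CPM (adjusted p = 0.316). Of the 11 members 7 were higher and 4 lower, with a median of 0.31, and DESeq2 called C1ra, C3 and Cfb, all higher. MHC class I genes were higher in 16 of 17 members with none called by edgeR (median 0.27), and DESeq2 called H2-K1 and Tapbp higher. The list was led by Tapbp, which loads peptides on class I, at 449, 464 and 471 CPM against 559 and 701 CPM (adjusted p = 0.266). Of 18 lysosome genes 15 were higher with none called by edgeR, and their sums overlapped between groups. DESeq2 called Hexa, Grn and Cd63 higher. Hexa, a ganglioside-degrading hexosaminidase, was at 271, 296 and 305 CPM against 370 and 448 CPM (adjusted p = 0.225).

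The Spp1-type and tissue repair genes went in the opposite direction to the macrophage and monocyte list. Of 13 members 11 were lower, 8 with no overlap (beside 15% of all genes), and 1, Mmp12, was called (median -0.64). DESeq2 called 4 lower (Spp1, Retnla, Chil3 and Mmp12). By class 7 members are sorted-side and 6, Spp1 among them, are shared. The tumour libraries also held RNA of this list, at 3038, 2669 and 2733 CPM in shNC and 2296, 2561 and 2344 CPM in shFgf21. The part of tumour RNA in the difference was not tested. Spp1, osteopontin, was at 4003, 4483 and 4600 CPM in shNC against 2540 and 2446 CPM in shFgf21 (-0.81 ± 0.12, edgeR adjusted p = 0.0824). Chil3, a chitinase-like protein of alternatively activated macrophages, was at 137, 55.5 and 214 CPM against 13.7 and 12.9 CPM (adjusted p = 0.114). Retnla, a secreted marker of the same state, had 88, 13 and 116 counts against 0 and 0, which is at least 22.8-fold lower against a floor of 3 counts per library. It passed the filter on low counts only through shNC, so being tested already favoured a lower value. Chil3 and Retnla both had their lowest control value in shNC 2 and no overlap. Cd163, a scavenger receptor, shared that pattern at 25.2, 3.01 and 28.4 CPM against 2.46 and 1.34 CPM (adjusted p = 0.282). Arg1, arginase, was at 1448, 1648 and 2253 CPM against 1461 and 1252 CPM (adjusted p = 0.493), and here the groups overlapped. Mmp13, a collagenase outside the list, was at 697, 552 and 1057 CPM against 199 and 273 CPM (-1.70 ± 0.28, adjusted p = 0.129).

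Per 100 counts of the macrophage list the called genes kept their direction. Mmp12 stood at 16.3, 12 and 15.5 in shNC and at 4.55 and 4.48 in shFgf21, a ratio of means of 0.309. Cfb stood at 0.61, 0.651 and 0.487 against 1.07 and 1.05 (ratio 1.82), although tumours also hold Cfb RNA. Cxcl9 stood at 2.39, 2.45 and 1.98 against 3.54 and 3.35 (1.52), and Aoah at 0.56, 0.517 and 0.474 against 0.702 and 0.671 (1.33). Each separated the groups, at the smallest exact permutation p of 0.2. Apoe, described below, stood at 4.87, 6.54 and 7.63 against 13.7 and 21 (2.73).

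Lipid genes were split. Apoe, the apolipoprotein of macrophage cholesterol efflux, was at 540, 860 and 1034 CPM in shNC against 2359 and 3908 CPM in shFgf21 (1.95 ± 0.29, edgeR adjusted p = 0.0913). It passed without shNC 3 (adjusted p = 0.048), and in 2 of 13 alternative settings in all. Cd36, a fatty acid and lipoprotein scavenger receptor, was at 93.5, 93.7 and 171 CPM against 29.2 and 46.8 CPM (-1.65 ± 0.32, adjusted p = 0.162). Lpl, lipoprotein lipase, was at 35.1, 39.7 and 55.2 CPM against 15.1 and 21.8 CPM (adjusted p = 0.162), and Plin2, a lipid droplet coat protein, at 407, 417 and 535 CPM against 271 and 314 CPM (adjusted p = 0.226). The groups did not overlap for any of these genes. Over the 16 lipid handling genes 7 were higher and 9 lower, none called by edgeR, while DESeq2 called Apoe higher and Cd36, Lpl and Plin2 lower. Cholesterol synthesis, which the series title names, had 18 of 23 genes higher and none called by edgeR or DESeq2 (median 0.14, range 0.04 to 0.17 over alternatives). Insig1, which holds the sterol-sensing machinery in the endoplasmic reticulum, was at 142, 128 and 130 CPM in shNC and 168 and 153 CPM in shFgf21 (0.27 ± 0.10, adjusted p = 0.377). Sqle, squalene epoxidase, was at 132, 114 and 65.3 CPM against 111 and 125 CPM, where the groups overlapped. All 23 genes belong to the shared class, so T cell levels cannot be read from them.

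Other myeloid cell types were scarce. Of 8 tested neutrophil genes 6 were lower, 5 with no overlap (beside 15% of all genes), and none was called by edgeR (median -1.62). DESeq2 called 4 lower (S100a8, S100a9, Retnlg and Mmp8). S100a9, an alarmin of neutrophils and monocytes, was at 21.5, 53.5 and 26.8 CPM in shNC against 6.66 and 5.42 CPM in shFgf21 (edgeR adjusted p = 0.129). S100a8, its partner, was at 13.3, 30.6 and 20 CPM against 7.33 and 6.05 CPM (adjusted p = 0.187), and Mmp8, the neutrophil collagenase, at 78.3, 65.8 and 122 CPM against 26 and 33.4 CPM (adjusted p = 0.13). Retnlg had 22, 75 and 37 counts against 1 and 0. Cxcr2, a chemokine receptor gene, was at 1.02, 4.22 and 1.12 CPM against 0.4 and 0.446 CPM. Retnlg and Cxcr2 passed the filter on low counts only through shNC, so being tested already favoured a lower value. The defining gene Ly6g was at or below 0.192 CPM, and Csf3r, the granulocyte colony stimulating factor receptor, was at 35.3, 49.7 and 35.6 CPM against 42.9 and 53.2 CPM. Of 8 tested dendritic cell genes 6 were lower with none called by edgeR or DESeq2, among them Xcr1 of cross-presenting cells, at 4.34, 3.28 and 2.72 CPM against 1.73 and 1.85 CPM (adjusted p = 0.331). Of 14 inflammatory cytokine genes 7 were higher and 7 lower with none called by edgeR, and DESeq2 called Il1a and Cxcl3, both lower. Il1a, interleukin 1 alpha, was at 199, 203 and 224 CPM against 144 and 137 CPM (adjusted p = 0.13), and Cxcl3, a neutrophil chemokine, at 78.2, 153 and 146 CPM against 49.7 and 54.1 CPM (adjusted p = 0.201).

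**Figure D5:**
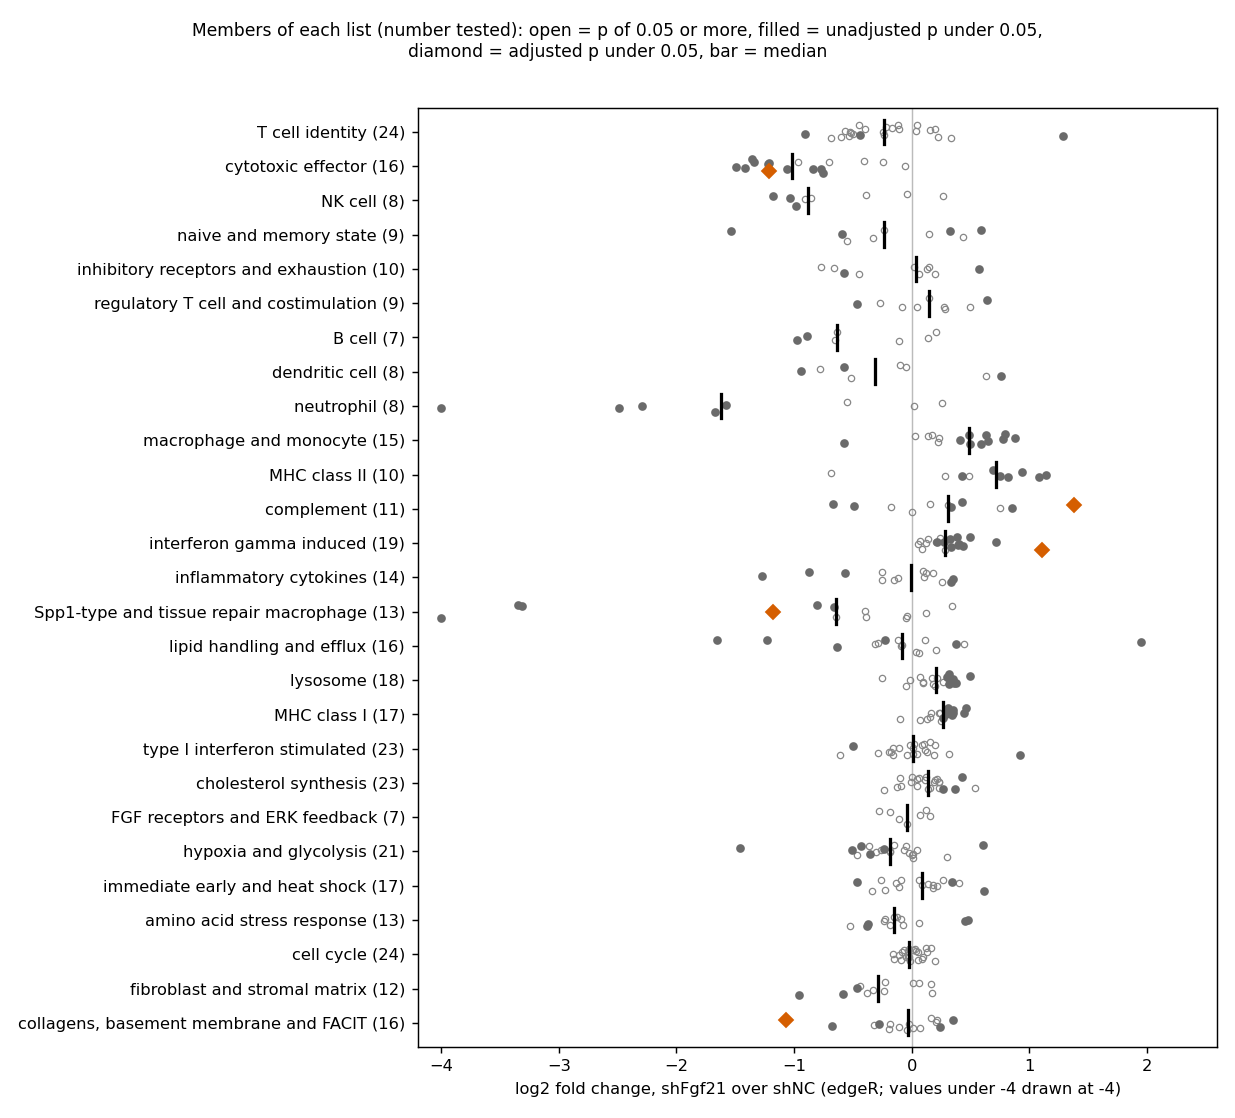
Log2 difference between shFgf21 and shNC sorted libraries for each tested member of 27 gene lists (open, unadjusted p of 0.05 or more; filled, under 0.05; diamond, adjusted p under 0.05; bar, median; values under -4 are drawn at -4). The cytotoxic members all lie below 0 and the interferon gamma-induced members all lie above it.

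Tumour and stromal transcripts showed few shared directions. Of 12 fibroblast and matrix genes 8 were lower and 4 higher, none called by edgeR (median -0.28), and DESeq2 called Postn and Tagln lower. Their sums of 5239 ± 525 CPM in shNC and 5271 ± 229 CPM in shFgf21 overlapped. Postn, periostin, was at 135, 104 and 129 CPM against 79.5 and 83.9 CPM (edgeR adjusted p = 0.207), and Col1a1, the main fibrillar collagen, at 545, 494 and 485 CPM against 323 and 412 CPM (adjusted p = 0.282). Tnc, tenascin C, was at 48.5, 51.3 and 61.3 CPM against 26.8 and 19.9 CPM (-1.20 ± 0.17, adjusted p = 0.0824). Serpinh1, a collagen chaperone, went the other way, at 122, 171 and 136 CPM against 287 and 430 CPM (1.33 ± 0.20, adjusted p = 0.0879). In a list of 16 collagen chains of basement membrane, FACIT and other types, 7 were higher and 9 lower. Only Col12a1 was called, by edgeR and by DESeq2. Col8a1, a network-forming collagen, was at 87.3, 82.1 and 82.2 CPM against 106 and 108 CPM (adjusted p = 0.257). Among tumour-side genes at a mean of 10 CPM or more, the higher genes with the smallest p were Amigo2, an adhesion protein gene, at 24.1, 24.4 and 19.2 CPM against 35.6 and 46 CPM (adjusted p = 0.162), and Gdnf, a neurotrophic factor gene, at 65.8, 40.3 and 53.9 CPM against 103 and 80 CPM (adjusted p = 0.268). The lower ones were Cdh19, a cadherin, at 18.1, 15.5 and 17 CPM against 12.3 and 10.4 CPM, and Tmem47, at 26.7, 18.9 and 27.2 CPM against 16.3 and 13.1 CPM (both adjusted p = 0.282). Below that level, S100a3 had a difference of 2.18 ± 0.36 (adjusted p = 0.13). Cdh1, E-cadherin, a shared gene, was at 27.4, 29.7 and 39 CPM against 16.8 and 14.2 CPM (adjusted p = 0.13), and DESeq2 called it lower. Its mean in the tumour libraries was only 2.99 CPM, so its sorted level is not that of the tumour libraries.

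General cell programmes held no edgeR call. Of 24 cell cycle genes 11 were higher and 13 lower, with 0 at an unadjusted p under 0.05 and 0 called by DESeq2. Mki67, a proliferation marker, was at 401, 389 and 325 CPM in shNC and 352 and 337 CPM in shFgf21 (edgeR adjusted p = 0.76). Of 21 tested hypoxia and glycolysis genes 16 were lower, 9 with no overlap (beside 15% of all genes) and none called by edgeR (median -0.18). DESeq2 called Adm lower and Hk2 higher. Adm, adrenomedullin, was at 15.4, 10.8 and 18.8 CPM against 5.8 and 5.1 CPM (-1.46 ± 0.25, adjusted p = 0.13). Hk2, hexokinase of the same list, went the other way, at 198, 194 and 231 CPM against 346 and 286 CPM (0.61 ± 0.12, adjusted p = 0.178). Of 17 immediate early and heat shock genes, which tissue dissociation can induce, 10 were higher, led by Fosb at 1608, 1917 and 1696 CPM against 2291 and 3049 CPM (adjusted p = 0.241), the 1 member that DESeq2 called. Of 13 amino acid stress genes 10 were lower with none called by edgeR or DESeq2 (median -0.15). Of the 7 tested FGF receptor and feedback genes 3 were higher and 4 lower with none called by edgeR or DESeq2. Fgfr1, an FGF receptor, was at 181, 159 and 178 CPM against 192 and 144 CPM (adjusted p = 0.95), and Klb was at or below 0.237 CPM and was not tested.

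Genes of other blood and vessel cells were mostly at low levels, with Pf4 of the platelet list as an exception. Pf4 was at 359, 439 and 442 CPM in shNC and 335 and 423 CPM in shFgf21 (-0.125 ± 0.14, edgeR adjusted p = 0.775). Every other gene of that list was at or below 9.36 CPM, so Pf4 alone does not show abundant platelet RNA. Which cells carry the Pf4 RNA was not tested. Hbb-bs, a globin gene of red cells, had 3, 0 and 8 counts in shNC and 17 and 40 in shFgf21. All 3 tested erythroid genes were higher and all 4 tested platelet genes lower, with none called by edgeR. Gp1bb, a platelet glycoprotein gene, had 16, 59 and 75 counts against 3 and 2, and DESeq2 called it lower. Hbb-bs passed the filter on low counts only through shFgf21, and Gp1bb only through shNC. Being tested thus already favoured the direction of each. Pecam1 of the endothelial list was at 12.9, 12.1 and 22.1 CPM against 10.3 and 9.81 CPM, and that list had 4 of 7 members lower.

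Further genes lay just short of the threshold. Has1, a hyaluronan synthase, was at 156, 160 and 173 CPM in shNC and 254 and 268 CPM in shFgf21 (edgeR adjusted p = 0.0731). Hpse, heparanase, was at 53.8, 45.4 and 52.3 CPM against 84.7 and 86.8 CPM (adjusted p = 0.0824). Cish was at 25.5, 36.7 and 36 CPM against 72.4 and 74.2 CPM (1.16 ± 0.16, adjusted p = 0.0793). For each of these genes the groups did not overlap. On the lower side, Btbd2 was at 33.1, 34 and 34.2 CPM against 18.2 and 18.6 CPM and Zfp865 at 34.4, 35.5 and 37.9 CPM against 19.7 and 18.6 CPM (both adjusted p = 0.0562). Rasa3, a GTPase-activating protein gene, was at 133, 146 and 140 CPM against 88.5 and 89.9 CPM (adjusted p = 0.0824). The groups did not overlap for these genes either.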

How the data were processed

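The 5 sorted libraries were compared by title group, 3 shNC against 2 shFgf21, with 6 tumour libraries for compartments and the interaction. The authors deposited whole-number counts and FPKM for 55487 genes. FPKM equals the count per fixed length and library total, to within 0.000844% over 9655 genes, and was used only to compare genes. The build is mm10, per the submitters' processing notes. Aligner, counter, annotation and strandedness: not given in the sources used here, so overlapping genes cannot be separated. Of listed identifiers 99.4% were in GENCODE M21. For 120 repeated names the identifier with most counts was used.

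Counts were tested in R 4.3.3 with edgeR 4.0.16 (filterByExpr, TMM, quasi-likelihood F-test, Benjamini-Hochberg, threshold 0.05). SE is the log2 difference over the square root of F. Alternatives were DESeq2 1.42.0, limma 3.58.1 voom with quality weights, median-ratio size factors, other filters, 4 groups in one fit, TMM from 1 compartment, and leaving out each library. Simulated counts held 16158 genes, with 200 changed among those at a mean of 10 CPM or more. There the sorted test recovered 22.4% of 1.5-fold, 80.6% of 2-fold and 100% of 4-fold changes. Of its calls 11.8% were false, more than the threshold of 0.05 names, and changes at lower levels were not simulated. A count of 0 allows 3 counts, 0.18 to 0.201 CPM.

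The 32 lists (438 entries) were described by counts and medians, without set tests. The comparison and lists were chosen with earlier results of these data known. Named were Fgf21, Fgf22, every called gene, the next 10 per direction and 5 per class and direction by p at 10 CPM or more (some left out for length), up to 5 members per list by p, and a core set. Ly6g, Csf3r, Ly6c2, C5ar1, Hmga1, Xiap, Glul, Rpl4 and Gm20547 were named after their values were seen. In the promoter table Cxcl9 and Aoah had an entry. Some genes are not reported here.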

Additional observations from a re-analysis of the deposited data

Results flagged for a closer look

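Mir8114 was the only gene whose knockdown effect differed between sorted and tumour libraries in the interaction test, by -5.93 ± 0.59 on the log2 scale (edgeR adjusted p = 0.00794). It had 68, 60 and 94 counts in shNC and 1 and 1 in shFgf21 sorted libraries, and 73, 53 and 63 against 60, 53 and 56 in tumours. It shares its position with the first exon of Glul.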

How the results depend on the processing

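Against 13 calls (3 higher, 10 lower), no filter on low counts and the fit of all 4 groups each called 1 gene, lower, and no gene higher (0). A mean of 5 CPM left 6 lower calls. DESeq2 called 246 genes, 153 higher and 93 lower, and voom with quality weights called 6 higher. TMM from tumour-side genes called 9 genes, 1 higher and 8 lower, and TMM from sorted-side genes 16, 4 higher and 12 lower, with the median of all genes at -0.10. Leaving out 1 library gave 0 to 34 calls, 0 to 13 higher and 0 to 23 lower. For the interaction, main count 1, the 5 CPM filter called 0 (511 genes at an unadjusted p under 0.05), DESeq2 36, and leaving out 1 sorted library 0 to 2, with 0 by edgeR without shFgf21 1 or 2 (717 and 591 at an unadjusted p under 0.05). With class limits of 30 and 4 times, 643 sorted-side genes held 3 calls and 2 tumour-side genes none. Over the single genes, 2317 values kept their side of the threshold, 83 gained a call and 69 lost one. None of the 13 called genes changed sign in any setting. Some genes that were not called did, such as Sqle (-0.06 to 0.39) and Fgfr1 (-0.25 to 0.16). No paired analysis was possible because each title of a sorted library joins several numbers, the labels do not say what these mark, and no library has a single partner in the other group. The cause of these changes was not tested. With 2 shFgf21 libraries, changes of 1.5-fold were mostly below reach.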
